A study of Mus musculus with 6 samples.

Results

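The genes described here are 6 apolipoproteins, Apoc1, Apoc3, Apoe, Apod, Apob and Apoa1, and 2 lipoprotein receptors, Lrp1 and Vldlr, which are 8 of the 21769 genes listed in every library. They were selected on their measured values in these libraries, among them the differences between conditions, so those differences are given as a description without a test of the single gene. RNA was sequenced from 3T3-L1, a single mouse fibroblast line of wild-type genotype that turns into adipocytes in culture, in 3 control libraries and 3 libraries from cells given chronic intermittent hypoxia (CIH), repeated spells of low oxygen. Cells of both groups were grown in 10% serum, induced with insulin and kept in 0.1 µM insulin to day 8, and 1.3 µg of total RNA went into each directional library. The sources used here give no oxygen levels or cycle times. No separate cultures are named either, so a p-value reflects how far these libraries scatter, and that scatter may be technical.

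Apolipoproteins coat the lipid droplets that travel in blood as lipoproteins, keep them soluble and direct them to enzymes and receptors. Receptors of the LDL receptor family, to which Lrp1 and Vldlr belong, bind apolipoproteins such as apoE on the particle and carry it into the cell. Fat cells use both the receptors and lipoprotein lipase to take up lipid, while liver and intestine are the main sources of apoB and apoA1.

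Levels are FPKM, the fragments of a gene divided by its length in kilobases and by the library's fragment total. Control 1, control 2, CIH 1 and CIH 2 were deposited as gene tables of 54532 genes, with 25733400 to 27990800 fragments per library. Control 3 and CIH 3 were deposited as transcript tables of 50660 entries, summed per gene, and their depth is unknown. Since levels cannot be compared across the 2 kinds of table, CIH 1 and 2 were set against control 1 and 2, and CIH 3 against control 3. Mitochondrial-encoded genes held 11.2% to 16.3% of the total in the gene tables, 43.7% in control 3 and 22.4% in CIH 3.

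The summed level of 8 adipocyte markers was 5802 and 6262 FPKM in control 1 and 2 and 6312 and 5560 FPKM in CIH 1 and 2, so the groups overlapped. It was 25858 FPKM in control 3 and 504 FPKM in CIH 3, and 7 of the 8 markers were at least 2-fold lower in CIH 3 (log2 of FPKM + 1). Fabp4 and Cidec carried most of the adipocyte sum in control 3, at 17239 and 4909 FPKM. Lep stayed at or below 0.217 FPKM in every library. The sum of 8 preadipocyte and fibroblast markers was 195 and 208 FPKM in control 1 and 2, 249 and 254 FPKM in CIH 1 and 2, 456 FPKM in control 3 and 4209 FPKM in CIH 3. All 8 of these markers reached at least 2 times their control 3 level in CIH 3. In the gene tables, 3 adipocyte markers were called lower and none higher, and 6 fibroblast markers were called higher and 2 lower. The adipocyte label was therefore matched by high adipocyte markers other than Lep in 5 libraries, while in CIH 3 the fibroblast sum exceeded the adipocyte sum. In RNA from whole cultures, fewer cells of a type and less RNA per cell cannot be told apart. All 8 hepatocyte, all 4 enterocyte and all 5 endothelial markers stayed under 1 FPKM in every library. Fgb, Fabp2, Cdx2 and Emcn were at 0 throughout. The 8 macrophage and leukocyte markers summed to 9.29 and 9.20 FPKM in control 1 and 2, 7.73 and 8.22 FPKM in CIH 1 and 2, 6.36 FPKM in control 3 and 12.6 FPKM in CIH 3. Most of this was Cd14 and Cd68, at 7.71 and 1.51 FPKM in control 1, 1.40 and 4.56 FPKM in control 3, and 8.39 and 0.978 FPKM in CIH 3. Lyz2 reached 2.64 FPKM in CIH 3. The other 5 stayed under 1 FPKM in every library, with Adgre1 at 0 throughout. The part of these markers in the results below was not tested.

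**Figure D1:**
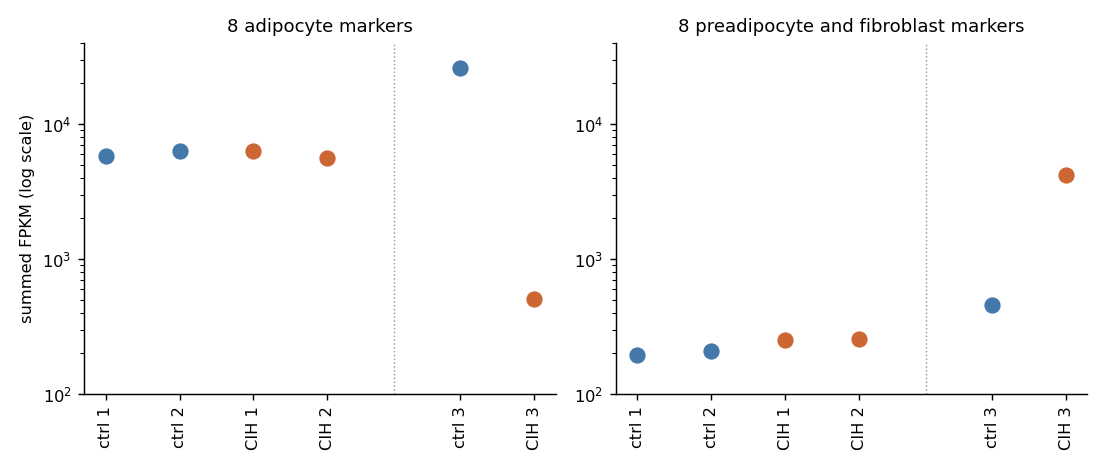
Summed FPKM of the adipocyte markers and of the preadipocyte and fibroblast markers in each library (log axis), one point per library, with the gene tables and the transcript tables set apart. The adipocyte sum lies between 5560 and 6312 FPKM in the 4 gene tables and is 25858 in control 3 and 504 in CIH 3, where the fibroblast sum is 4209.

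The small exchangeable apolipoproteins Apoc1 and Apoc3 were lower with CIH in both kinds of table. A coding sequence of each is shown because these genes have the shortest exon lengths of the group, 744 and 1014 bases. The sequences were read from GENCODE mouse release 21 (GRCm38), 5′ to 3′ on the strand of the gene, with the start and stop codons in capitals. The sequence shown has 267 bases and 88 codons before the stop in Apoc1, and 300 bases and 99 codons in Apoc3. Each lies on 3 coding exons. Both genes also have another complete coding sequence, which is not shown. It has 90 bases and 29 codons on 2 coding exons in Apoc1. In Apoc3 it has 414 bases and 137 codons on 4 coding exons.
Apoc1: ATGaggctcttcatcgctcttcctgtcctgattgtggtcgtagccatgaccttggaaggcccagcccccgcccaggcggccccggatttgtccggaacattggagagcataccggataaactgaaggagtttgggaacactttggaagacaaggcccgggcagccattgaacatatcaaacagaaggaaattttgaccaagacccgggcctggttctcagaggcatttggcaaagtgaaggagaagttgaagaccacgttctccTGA
Apoc3: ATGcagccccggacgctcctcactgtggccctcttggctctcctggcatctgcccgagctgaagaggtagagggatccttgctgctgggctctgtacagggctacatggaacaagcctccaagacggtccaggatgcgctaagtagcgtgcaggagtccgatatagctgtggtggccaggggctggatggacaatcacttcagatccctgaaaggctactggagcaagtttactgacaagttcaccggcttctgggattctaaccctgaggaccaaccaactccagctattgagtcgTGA

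Apoc3, an inhibitor of lipoprotein lipase and of remnant uptake, lies on chromosome 9 from 46232933 to 46235636 (minus strand). It measured 17.8 and 23.0 FPKM in control 1 and 2 and 2.38 and 1.58 FPKM in CIH 1 and 2. The groups did not overlap, and the group means were 20.4 ± 3.69 and 1.98 ± 0.561 FPKM (SD, n = 2). This is 10.3-fold lower with CIH on the plain ratio of FPKM, and a log2 change of −2.85 (SE 0.18) on log2(FPKM + 1), a scale that understates the change of low genes. The values rest on 464 and 653 fragments in the controls and on 63 and 44 in CIH 1 and 2. The 95% Poisson intervals were 1.83 to 3.04 FPKM in CIH 1 and 1.15 to 2.12 FPKM in CIH 2, which cover counting error only. In the transcript tables Apoc3 was at 6.33 FPKM in control 3, of which 5.82 came from 1 of its 4 entries, and was listed at 0 in CIH 3.

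Apoc1, a small apolipoprotein carried on several lipoprotein classes, lies on chromosome 7 from 19689481 to 19692660 (minus strand). It measured 20.2 and 26.1 FPKM in control 1 and 2 and 5.50 and 5.54 FPKM in CIH 1 and 2. Both CIH libraries lay below both controls, with means of 23.1 ± 4.22 and 5.52 ± 0.0262 FPKM (SD, n = 2). The plain ratio was 4.19-fold lower with CIH and the log2 change was −1.88 (SE 0.13), from 386 and 544 fragments in the controls and 107 and 113 in CIH. Control 3 held 270.5 FPKM and CIH 3 held 11.7 FPKM, 23.1-fold lower. Of its 2 transcript entries, 1 carried 263.6 of the control 3 level and the whole CIH 3 level.

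Apoe, the ligand for remnant uptake by the LDL receptor family, lies 3448 bases from Apoc1 on the same strand, from 19696109 to 19699188. Its levels were 2.94 and 5.18 FPKM in control 1 and 2 and 4.97 and 4.88 FPKM in CIH 1 and 2. The CIH values lay between the controls, so the groups overlapped (4.06 ± 1.58 and 4.92 ± 0.0678 FPKM, SD, n = 2). The log2 change was 0.26 (SE 0.22), and the controls differed more from each other than the group means did. The 2 controls lay outside each other's counting intervals, 2.51 to 3.43 FPKM for control 1 (162 fragments) and 4.62 to 5.79 FPKM for control 2 (310 fragments). The same held for the controls of Apoc1, Apoc3, Lrp1 and Vldlr, but not for those of Apod. Without control 1 the log2 change of Apoe was −0.06, and without control 2 it was 0.59. Apoe was at 62.3 FPKM in control 3 and at 11.4 FPKM in CIH 3, 5.47-fold lower. The largest of its 10 transcript entries held 22.8 FPKM in control 3 and 3.12 FPKM in CIH 3. Apoe was thus lower in CIH 3 while its CIH gene tables lay within the control range.

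Apod, a lipocalin that carries small lipids and is structurally unlike the other apolipoproteins, lies on chromosome 16 from 31296192 to 31314808 (minus strand). It measured 74.6 and 76.0 FPKM in control 1 and 2 and 6.29 and 6.05 FPKM in CIH 1 and 2. The means were 75.3 ± 0.929 and 6.17 ± 0.168 FPKM (SD, n = 2), 12.2-fold lower with CIH on the plain ratio, and the log2 change was −3.41 (SE 0.06). Between 424 and 5479 fragments lay behind each value. The replicate 3 pair went the other way, with 24.4 FPKM in control 3 and 246.7 FPKM in CIH 3, 10.1-fold higher. Both transcript entries were higher in CIH 3, from 16.7 to 164.0 FPKM and from 7.70 to 82.7 FPKM, and the larger entry kept a similar share of the sum, 68.4% in control 3 and 66.5% in CIH 3. The fibroblast marker sum was also higher in CIH 3, and its part in the level of Apod was not tested.

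Apob and Apoa1, the structural proteins of very-low-density and high-density lipoproteins made mainly by liver and intestine, were at or near the limit of detection. Apob (chromosome 12, 7977648 to 8016835, plus strand) had 1 fragment in control 1, 0 in control 2 and 3 in each of CIH 1 and CIH 2, and the 0 in control 2 allows up to 3 fragments, or 0.00769 FPKM. Apob was at 0.293 FPKM in control 3 and 0.0596 FPKM in CIH 3. Apoa1 (chromosome 9, 46228580 to 46230466, plus strand) had 4 fragments in control 1, 13 in control 2, 3 in CIH 1 and 1 in CIH 2, or 0.126, 0.376, 0.0928 and 0.0295 FPKM. The 95% Poisson interval of control 1 (0.0343 to 0.322 FPKM) overlapped those of CIH 1 (0.0191 to 0.271 FPKM) and CIH 2 (0.000747 to 0.164 FPKM), while that of control 2 was 0.200 to 0.643 FPKM. Apoa1 was at 0.159 FPKM in control 3 and 0.0813 FPKM in CIH 3. No fold is given for either gene in the gene tables, where the counts were low. For Apoa1, the intervals of control and CIH libraries lay apart only for control 2 and CIH 2.

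Lrp1, a large endocytic receptor for apoE-bearing remnants and many other ligands, lies on chromosome 10 from 127538161 to 127621148 (minus strand). It measured 40.6 and 46.0 FPKM in control 1 and 2 and 30.2 and 34.2 FPKM in CIH 1 and 2. The groups did not overlap (43.3 ± 3.85 and 32.2 ± 2.81 FPKM, SD, n = 2), and the log2 change was −0.42 (SE 0.10), with at least 14006 fragments behind each value. Control 3 was at 46.8 FPKM and CIH 3 at 133 FPKM, 2.85-fold higher, with 95.4% and 96.1% of it from 1 of 4 transcript entries. The difference was thus lower in the gene tables and higher in the replicate 3 pair. The antisense gene Gm16217, which overlaps Lrp1, reached at most 0.118 FPKM in the 4 gene tables and was not analysed in the replicate 3 pair.

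Vldlr, the very-low-density lipoprotein receptor, binds apoE-rich particles close to lipoprotein lipase, and lies on chromosome 19 from 27216484 to 27254231 (plus strand). It measured 35.7 and 32.2 FPKM in control 1 and 2 and 18.9 and 19.4 FPKM in CIH 1 and 2. The means were 34.0 ± 2.45 and 19.1 ± 0.317 FPKM (SD, n = 2), with no overlap, 1.77-fold lower with CIH on the plain ratio and a log2 change of −0.79 (SE 0.08). Control 3 was at 48.6 FPKM and CIH 3 at 64.8 FPKM, 1.33-fold higher. Of its 5 transcript entries, 3 were higher in CIH 3 and 2 were lower. Scaling the libraries otherwise kept the sign of the replicate 3 difference of each of these 5 genes with a value in CIH 3, and moved that of Vldlr between log2 changes of 0.12 and 1.03. The median of all tested genes in that pair was 0.26 as deposited, 0.83 with equal totals and −0.00 with the median of ratios.

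**Figure D2:**
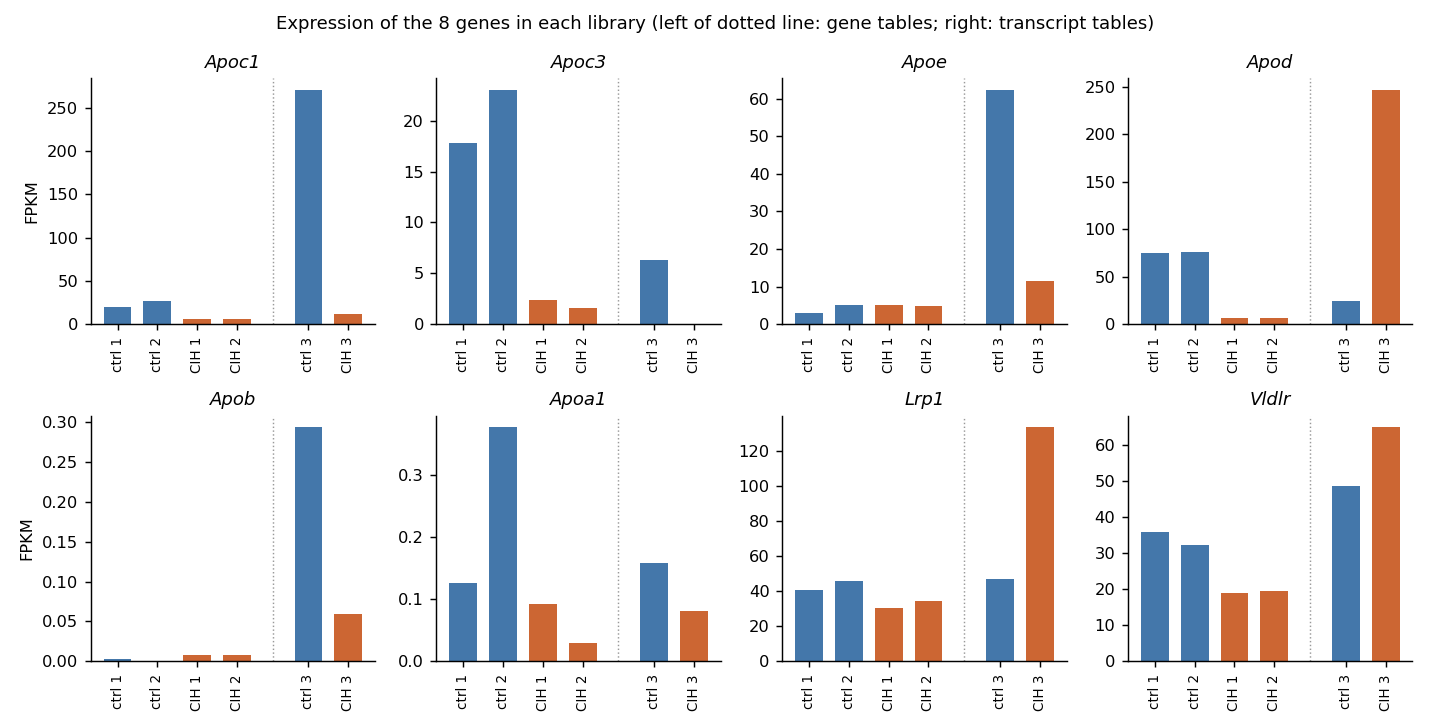
FPKM of the 8 genes in each of the 6 libraries, one panel per gene, with gene tables and transcript tables set apart because their levels are not comparable. Apod is at 74.6 and 76.0 in the control gene tables, at 6.29 and 6.05 in the CIH gene tables, and at 24.4 in control 3 beside 246.7 in CIH 3.

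**Figure D3:**
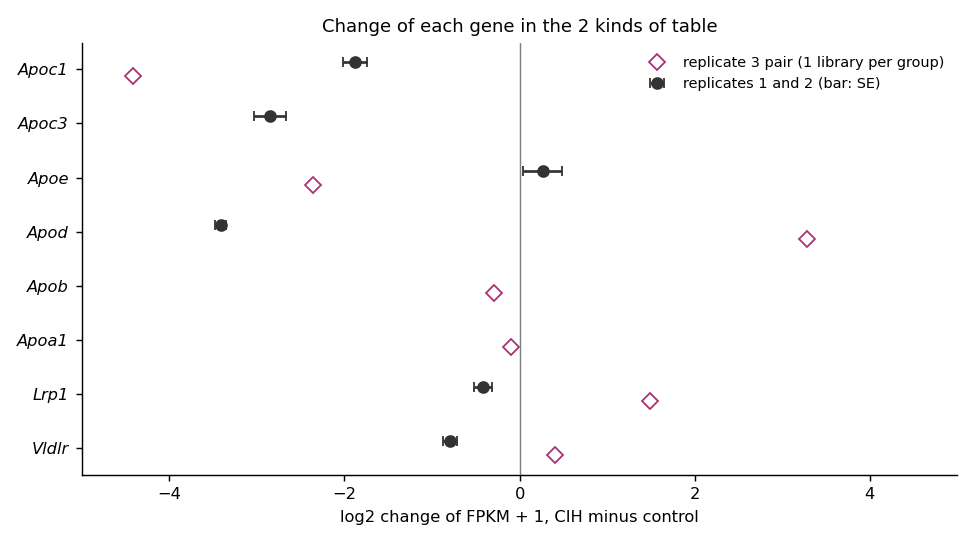
Log2 change of FPKM + 1 with CIH for each gene, with bars of 1 SE for replicates 1 and 2 and a single difference for the replicate 3 pair. No change is drawn for Apoc3 in that pair, since it is listed at 0 in CIH 3, and none for Apob and Apoa1, under 1 FPKM throughout, in replicates 1 and 2. Apoc1 is on the left in both, while Apod (−3.41 and 3.29), Lrp1 (−0.42 and 1.49) and Vldlr (−0.79 and 0.41) lie on opposite sides of 0.

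The order of levels differed between conditions and kinds of table. In control 1 and 2 it ran Apod, Lrp1, Vldlr, Apoc1, Apoc3, Apoe, Apoa1, Apob from the highest, and the ranges of Apoc1 and Apoc3 overlapped. In CIH 1 and 2 it ran Lrp1, Vldlr, Apod, Apoc1, Apoe, Apoc3, Apoa1, Apob, with no overlap between the ranges of neighbours. The CIH 1 counting interval of Apoc1 (4.51 to 6.64 FPKM) overlapped those of Apod (5.71 to 6.92 FPKM) and Apoe (4.40 to 5.59 FPKM). In CIH 2 those of Apoa1 (0.000747 to 0.164 FPKM) and Apob (0.00162 to 0.0229 FPKM) overlapped too. The order of these neighbours was thus within counting error in those libraries. In control 3 the order was Apoc1, Apoe, Vldlr, Lrp1, Apod, Apoc3, Apob, Apoa1, and in CIH 3 it was Apod, Lrp1, Vldlr, Apoc1, Apoe, Apoa1, Apob, with Apoc3 at 0. Apoc1 thus led in control 3 but lay below Apod, Lrp1 and Vldlr in control 1 and 2, and Apod led in CIH 3 but lay below Lrp1 and Vldlr in CIH 1 and 2. These contrasts cross the 2 kinds of table, whose levels cannot be compared, and the part of the kind of table in them was not tested.

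Of the 8 genes, 6 passed the filter (averaging 1 FPKM or more across all 6 libraries), and Apob and Apoa1 did not. The fit of all 10976 tested genes (limma, Benjamini-Hochberg, adjusted p under 0.05) called 5 of the 6 lower in CIH 1 and 2, Apoc1, Apoc3, Apod, Lrp1 and Vldlr, and 0 higher, where it called 20.9% of all tested genes lower and 18.2% higher. In the replicate 3 pair, 3 of the 6 were at least 2-fold lower on log2(FPKM + 1), Apoc1, Apoc3 and Apoe, against 11.8% of all genes, and 2 were at least 2-fold higher, Apod and Lrp1, against 21.8%. Apod, Lrp1 and Vldlr were lower in both CIH gene tables and higher in CIH 3, as were 22.8% of all tested genes. The genes were chosen on these contrasts, so nothing is read from the counts. Scaling to equal totals changed the calls over all genes from 1995 higher and 2297 lower to 1368 and 3149. Without CIH 1 or without CIH 2 the count of the genes called was 4, without Lrp1, and without control 2 Lrp1 was not called while Apoe was, as higher.

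The 250 bases before the start of Apod, Lrp1 and Vldlr are shown because these genes went opposite ways in the 2 kinds of table. They come from RefSeq (GRCm38.p6), 5′ to 3′ on the strand of the gene, at chr16:31314809-31315058 (minus) for Apod, chr10:127621149-127621398 (minus) for Lrp1 and chr19:27216234-27216483 (plus) for the first start of Vldlr. Capitals mark matches of the motifs searched on both strands: ACGTG and GCGTG, letters bound by hypoxia-inducible factors, AGGTCA, a nuclear receptor site, and TTGCNNAA, a core of C/EBP sites in which N is any base.
Apod: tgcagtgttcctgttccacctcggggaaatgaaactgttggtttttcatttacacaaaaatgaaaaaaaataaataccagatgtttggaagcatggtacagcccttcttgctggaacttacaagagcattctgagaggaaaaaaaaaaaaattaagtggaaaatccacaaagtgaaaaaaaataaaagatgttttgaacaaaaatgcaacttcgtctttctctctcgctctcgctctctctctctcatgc
Lrp1: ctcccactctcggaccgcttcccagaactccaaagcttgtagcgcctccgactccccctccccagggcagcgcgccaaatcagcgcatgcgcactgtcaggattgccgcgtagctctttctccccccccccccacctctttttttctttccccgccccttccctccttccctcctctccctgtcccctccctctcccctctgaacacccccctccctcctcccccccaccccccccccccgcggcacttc
Vldlr: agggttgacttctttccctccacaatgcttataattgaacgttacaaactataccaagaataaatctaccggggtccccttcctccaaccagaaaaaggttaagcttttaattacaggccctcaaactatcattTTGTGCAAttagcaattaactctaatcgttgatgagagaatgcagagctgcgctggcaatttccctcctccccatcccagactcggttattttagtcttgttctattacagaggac

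Of the 8 genes, 6 had a promoter in the RefSeq table, in 9 windows from 250 bases before to 50 after a start. The first 3 motifs were in none of the 9 windows, and TTGCNNAA was in 2, the first start of Vldlr (TTGTGCAA, 116 bases before it) and Apob (TTTGGCAA, 90 bases before its start). Among all 32851 promoters of the table, 19.6% held ACGTG, 32.4% GCGTG, 16.3% AGGTCA and 10.8% TTGCNNAA. ACGTG on both strands overlaps itself in CACGTG. A match is a description of the letters.

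Apoc1 and Apoe lie next to other lipoprotein genes on chromosome 7, and Apoc3 and Apoa1 next to each other on chromosome 9, 2466 bases apart. Apoc4, a minor apolipoprotein 8001 bases from Apoc1, was 1.38 and 1.75 FPKM in control 1 and 2 and 0.753 and 0.460 FPKM in CIH 1 and 2 (log2 change −0.68, adjusted p = 0.0124, limma), and 28.8 and 0.862 FPKM in control 3 and CIH 3. Apoc2, the activator of lipoprotein lipase, was at 0 in all 4 gene tables and at 9.92 and 0.248 FPKM in control 3 and CIH 3. Another gene, Gm44805, overlaps both on the same strand, and the sources used here do not say how shared fragments were assigned. Tomm40, a mitochondrial import gene beyond Apoe, measured 35.1, 39.4, 44.7 and 41.7 FPKM in control 1, control 2, CIH 1 and CIH 2 (log2 change 0.21, adjusted p = 0.112), and 67.0 and 20.8 FPKM in control 3 and CIH 3. Nectin2 was lower (−0.55, adjusted p = 0.0151) and Clptm1 higher (0.27, adjusted p = 0.0408) in CIH 1 and 2. In control 3 and CIH 3 Nectin2 was 20.8 and 9.23 FPKM, and Clptm1 went the other way than in the gene tables, at 53.1 and 27.8 FPKM. On chromosome 9, Apoa4 was 1.24 and 1.30 FPKM in control 1 and 2 and 0.105 and 0.141 FPKM in CIH 1 and 2, and 1.10 and 0.0410 FPKM in control 3 and CIH 3, below the filter, and Apoa5 stayed at or below 0.125 FPKM. Sik3 was lower (−0.36, adjusted p = 0.0166), Zpr1 was not called (0.26, adjusted p = 0.0573) and Bud13 was higher (0.24, adjusted p = 0.0467). In control 3 and CIH 3 they were 48.8 and 31.6, 11.2 and 14.0, and 3.43 and 6.56 FPKM. Fits that left out 1 library are not given for Nectin2, Clptm1, Sik3 and Bud13.

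The other genes of lipoprotein handling were grouped in 7 lists written from pathway knowledge with earlier results of these data known. Of 71 genes, 45 were tested, and 4 were called higher and 20 lower, with 21 not called, where 18.2% of all tested genes were called higher and 20.9% lower. Their median log2 change was −0.24, beside −0.01 for all tested genes. In the replicate 3 pair the 45 had a median of −0.02, beside 0.26 for all, with 9 at least 2-fold higher and 15 at least 2-fold lower, where 21.8% and 11.8% of all genes were. Apoc2 and Lrp4 averaged under 1 FPKM in the gene tables and passed the filter only through replicate 3. Apoc2 was high there in control 3 (9.92 FPKM, 0.248 in CIH 3) and Lrp4 in CIH 3 (2.93 FPKM, 0.488 in control 3). The filter thus favoured the direction of each in that pair, where Apoc2 is among the 15 lower and Lrp4 among the 9 higher. Of the 23 called genes that the naming rule takes, 12 kept their call in each of the 4 fits that left out 1 library. Where a gene named below did not, this is given with its list.

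Of the 9 other apolipoproteins, 3 were tested: Apoc4 fell, as given above, and Clu rose, while Apoc2, at 0 in all 4 gene tables, could not be called there. The medians of this list, 0 and −3.13 in the replicate 3 pair, are the values of Apoc2 itself, so nothing is read from them. Clu, an extracellular chaperone, rose from 1.76 ± 0.0584 to 3.03 ± 0.617 FPKM (SD, n = 2; log2 change 0.54, adjusted p = 0.0240) and held 2.13 and 24.0 FPKM in control 3 and CIH 3. Clu lost its call without control 1, control 2 or CIH 1. Of 13 other receptors of the LDL receptor family and the sortilin type, 8 were tested, 3 fell and 1 rose (median −0.33, 0.54 in the replicate 3 pair). Among them Lrp4 (log2 change −1.01, adjusted p = 0.000763) and Lrp12 (−0.54, adjusted p = 0.00779) fell, the latter with its call lost without CIH 1, and both were higher in CIH 3 than in control 3 (0.488 and 2.93, 5.33 and 11.3 FPKM). Sort1, a sorting receptor, rose (0.32, adjusted p = 0.0188), a call lost in each fit that left out 1 library, and was 99.96 and 11.9 FPKM in control 3 and CIH 3.

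Of 8 other lipoprotein and scavenger receptors, 4 were tested, 2 rose and 2 fell (median −0.01, and −4.00 in the replicate 3 pair). Olr1, a receptor for oxidised LDL, rose from 24.3 ± 3.25 to 116 ± 2.53 FPKM (log2 change 2.22, adjusted p = 0.000737, n = 2) and was 50.2 FPKM in control 3 and 0.506 FPKM in CIH 3. Cd36, a fatty acid transporter, rose from 636 ± 103 to 968 ± 59.4 FPKM (0.61, adjusted p = 0.0391) and was 1317 and 38.4 FPKM in control 3 and CIH 3. That call was lost in each fit without 1 library. Scarb1, the HDL receptor, fell from 60.9 ± 0.445 to 35.0 ± 1.32 FPKM (−0.78, adjusted p = 0.00225), and control 3 and CIH 3 held 133 and 16.4 FPKM. Apobr, an apoB receptor, fell (−0.64, adjusted p = 0.0110), a call lost without CIH 1 or without CIH 2, and was 5.15 and 16.5 FPKM in control 3 and CIH 3.

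Of 7 receptor chaperones, adaptors and degraders, 6 were tested and 3 fell with none higher (median −0.29, 0.68 in the replicate 3 pair). Mylip, which marks Vldlr for degradation, fell from 22.7 ± 1.48 to 8.85 ± 0.193 FPKM (−1.27, adjusted p = 0.00115), and was 30.0 and 79.1 FPKM in control 3 and CIH 3. Lrpap1, the chaperone of the receptor family that includes Lrp1 and Vldlr, fell from 25.1 ± 2.77 to 14.2 ± 1.81 FPKM (−0.78, adjusted p = 0.00928), and was 21.1 and 46.6 FPKM. Mylip and Lrpap1 thus went the same way as Lrp1 and Vldlr in each kind of table.

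Of 14 genes of lipolysis and remodelling, 6 were tested and 3 fell (median −0.28, −1.02 in the replicate 3 pair). Sel1l, which helps lipoprotein lipase leave the endoplasmic reticulum, fell from 24.7 to 15.8 FPKM (−0.61, adjusted p = 0.00403), and was 28.3 and 28.2 FPKM in control 3 and CIH 3. Pon2 (−0.39, adjusted p = 0.0341) and Pltp (−0.36, adjusted p = 0.0226) fell, calls that were lost in each fit that left out 1 library. Lpl, the lipase itself, was 1008 ± 92.5 and 878 ± 43.2 FPKM (−0.20, adjusted p = 0.328), and 3773 and 163 FPKM in control 3 and CIH 3. Angptl4, its inhibitor, was 249 ± 23.4 and 322 ± 19.2 FPKM (0.37, adjusted p = 0.0529, from 0.0211 to 0.253 under the alternatives for the gene tables), and 179 and 37.5 FPKM in control 3 and CIH 3.

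Of 9 assembly and secretion genes, 7 were tested and 3 fell (median −0.24, 0.17 in the replicate 3 pair). Apobec1, which edits apoB messenger RNA, measured 23.1, 19.0, 15.9 and 14.9 FPKM in control 1, control 2, CIH 1 and CIH 2 and fell (−0.42, adjusted p = 0.0351), a call lost without control 1, CIH 1 or CIH 2. Surf4 (−0.32, adjusted p = 0.0260) and Mia3 (−0.29, adjusted p = 0.0251), cargo receptors of the secretory pathway, fell, calls that were lost in each fit that left out 1 library, and P4hb was 415 and 393 FPKM (−0.08, adjusted p = 0.560). Of 11 genes of sterol sensing and efflux, 11 were tested and 5 fell (median −0.19, −0.20 in the replicate 3 pair). Lipa, the lysosomal lipase, fell from 148 ± 6.27 to 44.7 ± 1.88 FPKM (−1.70, adjusted p = 0.000670), and was 53.9 and 56.0 FPKM in control 3 and CIH 3. The cholesterol exporters Abca1 (−1.21, adjusted p = 0.00117) and Abcg1 (−0.78, adjusted p = 0.00268) fell, and were 112 and 14.2 FPKM and 25.2 and 1.42 FPKM in control 3 and CIH 3. Soat1, which esterifies cholesterol, fell (−0.69, adjusted p = 0.00483) and was 15.5 and 34.2 FPKM.

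**Figure D4:**
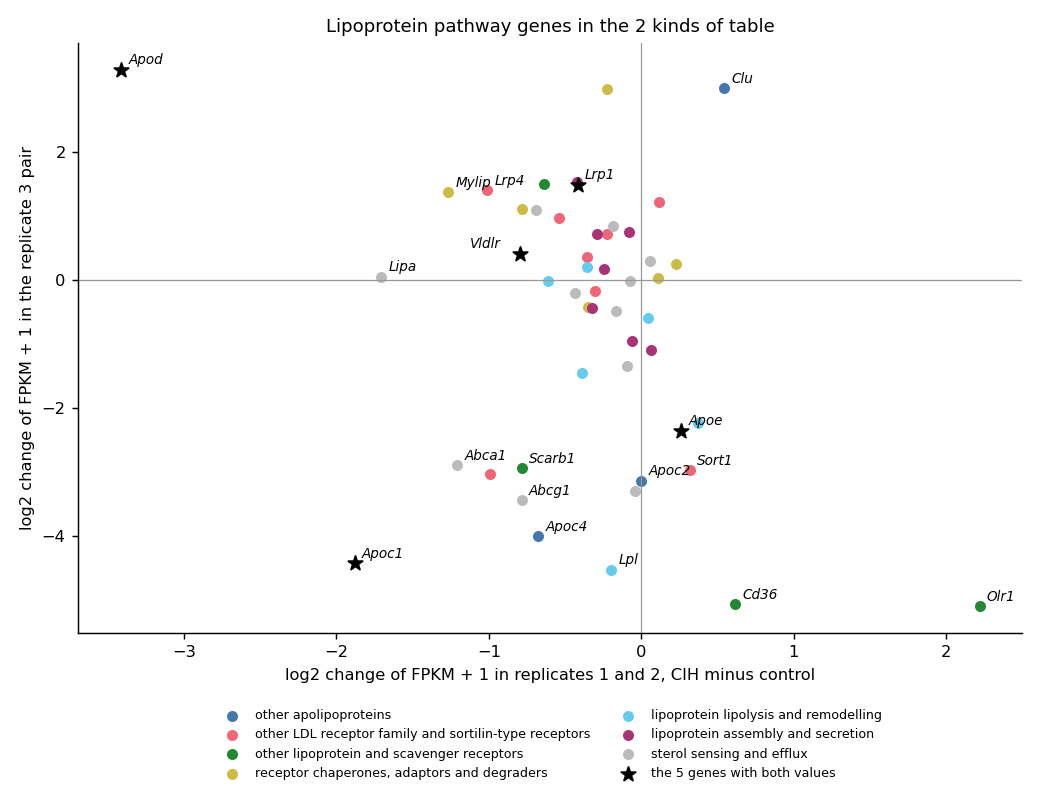
Log2 change of FPKM + 1 in replicates 1 and 2 (horizontal) against the replicate 3 pair (vertical) for the tested genes of the 7 lists and for 5 of the described genes, one point per gene. Apoc3, listed at 0 in CIH 3, is not shown, nor are Apob and Apoa1. Mylip, Lrp4, Apod, Lrp1 and Vldlr lie left of and above 0, and Olr1 and Cd36 right of and below it.

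The genes closest to each described gene were those with the smallest root mean square (RMS) difference of log2 values over the 6 libraries, each centred within its kind of table. For Vldlr these were Jak2 (RMS 0.0193), Tmem106b (0.0470) and Paip2b (0.0482), and for Lrp1 they were Chd3 (0.0222), Xdh (0.0387) and Pde4a (0.0428). Among the nearest of Apoc1 were Acaa1b (0.107) and Ffar2 (0.140), among those of Apoe Etfb (0.107) and Ndufb8 (0.125), and for Apoc3 Cyp2e1 (0.124), Anxa8 (0.239) and Pnpla3 (0.294). The nearest of Apod were farther, Rnase4 (0.682), Rtp4 (0.729) and Lox (0.751). Lox measured 54.2, 50.8, 15.6 and 18.0 FPKM in control 1, control 2, CIH 1 and CIH 2, and 49.0 and 583 FPKM in control 3 and CIH 3. Likeness over 6 libraries that share their tables is a description.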

How the data were processed

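Gene expression of 3 control and 3 CIH libraries was deposited by the authors as FPKM, a unit read from the values. The submitters' processing notes list GRCm38, featureCounts 1.5.0-p3 and DESeq 1.8.3 without roles, and the sources used here name no aligner. Gene tables were used for replicates 1 and 2 and transcript tables, summed per gene ID, for replicate 3. In the gene tables, FPKM times exon length came in whole steps (98.4% to 98.6% of genes under 50 fragments within 0.05 of a whole), which gave the fragments behind each value. Of 21769 gene IDs in all files, 93 had no symbol in GENCODE release 21 (GRCm38).

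The 10976 genes averaging 1 FPKM or more across the 6 libraries were fitted with limma 3.58.1 (R 4.3.3). The fit used log2(FPKM + 1) of replicates 1 and 2, group alone, two-sided, trended empirical Bayes, Benjamini-Hochberg adjusted p under 0.05. The method was tested on simulated data whose libraries varied independently and in which far fewer genes changed than were called here. That simulation cannot show whether the scatter of these libraries is technical. The replicate 3 pair has 1 library per group and no p. The described genes, lists and rules were chosen with earlier results of these data known. Named genes are all 8, from each list up to 4 called genes of largest change and any with a mean of at least 100 FPKM in the gene tables, and the 3 closest genes by RMS; protein-coding neighbours within 50 kb were chosen after their values were seen. A few genes that these rules take are counted but not reported singly here. Marker lists covered adipocyte, preadipocyte and fibroblast, macrophage and leukocyte, hepatocyte, enterocyte and endothelial genes. Alternatives were another pseudocount (0.1), filters, 4 scalings, a replicate block, fits of all 6 libraries, and leaving out each library. Python 3.11.15 made tables and figures.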

Additional observations from a re-analysis of the deposited data

Results flagged for a closer look

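In 18 of the 32 described or named genes that were tested, both CIH gene tables lay on one side of both controls while CIH 3 lay on the other side of control 3. Over all 10976 tested genes, 22.8% were lower in both CIH gene tables and higher in CIH 3, and 12.9% the reverse. Of all 45 tested genes of the 7 lists, named or not, 16 showed the first pattern and 4 the second. The difference between the 2 kinds of table was not tested. Among the described genes the log2 change was 3.29 in the replicate 3 pair and −3.41 in replicates 1 and 2 for Apod, 1.49 and −0.42 for Lrp1, and 0.41 and −0.79 for Vldlr.

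Among the named pathway genes, those higher in CIH 3 and lower in CIH 1 and 2 had log2 changes in the replicate 3 pair of 1.40 (Lrp4), 0.96 (Lrp12), 1.51 (Apobr), 1.37 (Mylip), 1.11 (Lrpap1), 0.21 (Pltp), 1.53 (Apobec1), 0.71 (Mia3), 0.76 (P4hb), 0.0539 (Lipa) and 1.10 (Soat1). The changes of Pltp and Lipa were smaller than the median of all tested genes in that pair, 0.26. Their direction rests on 1 library per group at the deposited scale. Those lower in CIH 3 and higher in CIH 1 and 2 had changes of −2.97 (Sort1), −5.09 (Olr1), −5.06 (Cd36) and −2.23 (Angptl4). The adipocyte marker sum was 51.3-fold lower and the fibroblast marker sum 9.23-fold higher in CIH 3 against control 3, and the part of either was not tested.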

How the results depend on the processing

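The 4292 calls over all genes and the 24 among the 7 lists stayed within 1.5 times under another pseudocount, filter or scaling. Single lists moved more: with equal totals the LDL receptor family list went from 4 calls to 7 and sterol sensing from 5 to 8, and lipolysis went from 3 to 5 with no filter. Lrp4 is left out by a filter on the gene tables alone, and Angptl4 was called higher with that filter and with 3 of the 4 scalings (adjusted p 0.0211 to 0.0445, limma). Leaving out each library gave 1865 to 3682 calls over all genes and 12 to 16 in the lists, lowest without CIH 1 (1865 and 12); without CIH 2 they were 2316 and 15. With all 6 libraries and a term for the kind of table, 63 genes were called (20 higher, 43 lower; 2052 at an unadjusted p under 0.05) and 0 in the lists (9 at an unadjusted p under 0.05, limma), with only Apoc3 of the described genes; with group alone 0 were called (490 unadjusted) and 0 in the lists (5 unadjusted). In both fits of 6 libraries the log2 change turned to −0.78 for Sort1, −0.22 for Olr1, 0.0759 for Apobr, −1.28 for Cd36, −0.50 for Angptl4, 0.23 for Apobec1, 0.0461 for Mia3 and 0.20 for P4hb, and without control 1 that of Apoe to −0.0613. The cause was not tested.

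Replicate numbers are shared between groups, and deviations from the group means correlated at 0.529, 0.587 and 0.581 between same-numbered libraries over all 6, but at −0.18 in the gene tables alone. With the replicate block 3332 genes were called and 18 in the lists, with Cd36, Pon2, Pltp, Surf4 and Mia3 among those no longer called, and the 5 described genes called lower still were. With the pairing crossed, chosen after seeing the data, 4510 and 27 were called. Taking the highest transcript entry in place of the sum kept the sign of the replicate 3 difference of each described gene (Apod 3.22, Vldlr 0.47). Cd36 was also not called with a pseudocount of 0.1 or no filter. Fragment counts limit Apob, Apoa1 and Apoc3 in CIH; depth is unknown in replicate 3.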
